A study of Mus musculus with 8 samples.

Results

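Spi1, Maf, Irf8, Cebpb, Mef2c, Klf2, Klf4, Nr4a1 and Bhlhe40 are 9 transcription factor genes that are known for their part in myeloid lineages. They were chosen by name from 30406 genes that all libraries share, and each was found under 1 gene identifier. The data are single-cell RNA-sequencing (scRNA-seq) counts of leukocytes from brain parenchyma and from pia and dura, which are layers of the meninges, of male C57BL/6 mice aged 10 to 16 weeks. Stroke was induced by transient middle cerebral artery occlusion (MCAO). Cells were sorted as CD45+ and negative for a CD45 antibody injected intravenously, which keeps tissue leukocytes and removes those in the blood. There was 1 library each of control brain, control pia, control dura, pia at 24 h, dura at 24 h and brain at 72 h after MCAO, while brain at 24 h has 2 libraries, replicates 1 and 2. No mouse carried a transgene, and the controls, called naive in one place of the study and sham-operated in another, had no MCAO. Occlusion lasted 30 or 45 min in the study, and which of these applies to a library is not given in the sources used here. The study states that experiments were pooled to 5 for each compartment, and the number of mice per library is not given. One control library is titled as brain parenchyma but has pia in its remaining labels, and was counted as control pia. Cells carry the cluster names that the authors deposited, and 15 of the 21 clusters are myeloid. Unique molecular identifiers (UMIs), each standing for 1 captured transcript, were summed per library and cluster and are given as counts per 1000000 UMIs (CPM).

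Spi1 encodes PU.1, an ETS factor that opens chromatin for most myeloid genes and is required for macrophages, microglia and granulocytes. Irf8 acts with PU.1 and is needed for type 1 dendritic cells and for microglia, while Cebpb drives emergency production of granulocytes and inflammatory genes of macrophages. Maf encodes c-Maf, a macrophage factor, and Mef2c encodes a MADS box factor that restrains microglial responses and also serves B cells. Klf2 and Klf4 are zinc finger factors of quiescent and of monocytic cells, Klf2 being a target of MEF2 factors in endothelium. Nr4a1 encodes the nuclear receptor Nur77, an immediate early gene that is induced within minutes of a stimulus. Bhlhe40 encodes a repressor of the basic helix-loop-helix family that serves T cells, natural killer (NK) cells and dividing tissue macrophages.

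The libraries fall into 2 sets that do not follow the tissue or the time. Replicate 2 of brain at 24 h and the library of brain at 72 h list 31053 genes and the other 6 libraries 32285 genes. Within the 6 libraries every pair shared between 12 and 43 cell barcodes, the 2 libraries with the shorter list shared 13, and pairs across the sets shared 0 to 2. The study's supplement gives dura at 24 h the same kit version as brain at 72 h, while by gene list and barcodes it stood with the 6. Of the genes averaging at least 50 CPM in microglia, 53.4% differed at least 2-fold between the replicates of brain at 24 h, against 9.36% between replicate 2 and brain at 72 h. Tests below are therefore also given without replicate 2, which leaves the libraries of 1 set. Total UMIs per library ranged from 6591898 to 20754181.

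Marker levels under the macrophage and microglia names differed between brain and meninges. CAM_1 and CAM_2 (CNS-associated macrophages), Macro_1 and Macro_2 are called macrophages here. In this class the summed level of 7 border macrophage markers was 141 CPM in control brain, 25.7 and 612 CPM in the replicates of brain at 24 h and 3952 to 4842 CPM in pia and dura. The summed level of 8 microglia markers was 28412, 12082 and 3101 CPM in the same brain libraries and 1134 to 2069 CPM in pia and dura. In these brain libraries the macrophage class thus carried more transcripts of the microglia markers than of the border macrophage markers. The sums cover the class and not its single clusters, and the source of these transcripts was not tested. In the microglia class (Micro_1, Micro_2, Micro_3, stress_Micro) the border markers summed to 2.95 to 33.5 CPM in control brain and brain at 24 h and to 983 to 4970 CPM in pia and dura, where this class holds few cells (51 in control dura, 76 in dura at 24 h).

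The bases before the start of 3 members are shown because these members had the largest fold changes between brain and meningeal macrophages (below), Cebpb and Nr4a1 toward the meninges and Klf2 toward brain, although Nr4a1 did not pass the test with all libraries. They are 250 bases from RefSeq's table on GRCm38.p6, written 5′ to 3′, and the table held 6 of the 9 members. The window of Nr4a1 lies before a start inside the span that GENCODE gives the gene, and the last bases of the Klf2 window also lie inside that gene's span. Capitals mark the letters CGTCA, the core of a cAMP response element, on either strand, and in Klf2 also a MEF2 motif.
Cebpb, chr2:167688665-167688914, plus strand: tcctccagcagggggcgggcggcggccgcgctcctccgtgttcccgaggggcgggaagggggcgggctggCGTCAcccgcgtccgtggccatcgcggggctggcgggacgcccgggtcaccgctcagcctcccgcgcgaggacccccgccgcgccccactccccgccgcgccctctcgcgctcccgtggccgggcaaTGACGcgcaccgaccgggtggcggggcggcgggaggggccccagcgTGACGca
Nr4a1, chr15:101266596-101266845, plus strand: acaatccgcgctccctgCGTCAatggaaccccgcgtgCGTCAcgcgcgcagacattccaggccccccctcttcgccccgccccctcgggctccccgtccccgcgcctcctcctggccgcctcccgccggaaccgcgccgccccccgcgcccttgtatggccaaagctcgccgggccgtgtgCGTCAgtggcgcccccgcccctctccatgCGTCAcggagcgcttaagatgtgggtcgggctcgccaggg
Klf2, chr8:72318812-72319061, plus strand: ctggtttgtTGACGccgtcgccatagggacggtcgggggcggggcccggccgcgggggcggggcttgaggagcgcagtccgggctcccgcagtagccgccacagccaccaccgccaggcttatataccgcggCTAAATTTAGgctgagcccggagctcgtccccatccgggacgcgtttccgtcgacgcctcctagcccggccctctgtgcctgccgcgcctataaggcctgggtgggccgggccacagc
CGTCA occurred 4 times before Nr4a1, 3 times before Cebpb and 1 time each before Klf2 and Klf4, and was not found in the windows of Irf8 and Mef2c. Of all 32851 such windows, 17.8% held it on either strand. The MEF2 motif stood 118 bases before the start of Klf2 and in 1.69% of all windows. CCAAT was found in no window of Cebpb, Nr4a1, Klf2 or Klf4 and in 33.8% of all windows. These are matches of letters and not measured binding sites.

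Spi1 was the member with the most even level. Its mean over libraries was highest in the granulocyte cluster Granulo_2, at 562 ± 179 CPM (SD, n = 6 libraries), and in this cluster it exceeded the level of all myeloid cells of the same library in 6 of 6 libraries. Micro_1, CAM_1, Macro_2, mDC1 and SAMC (stroke-associated myeloid cells) had means between 360.5 and 384 CPM, which differ by less than their SDs. The lymphoid clusters and mast cells stood apart: T cells (Tc) averaged 13.7 ± 13.2 CPM (SD, n = 8 libraries) and mast cells 66.0 ± 25.1 CPM (SD, n = 2 libraries). In macrophages Spi1 was 384 CPM in control brain, 468 and 313 in replicates 1 and 2 of brain at 24 h, 337 in brain at 72 h, 291 (control) and 505 (24 h) in pia, and 313 (control) and 386 (24 h) in dura. Granulocytes carried more Spi1 than macrophages in 7 of 7 libraries, with a mean log2 ratio within libraries of 0.34 ± 0.18 (SD, n = 7 libraries). Clusters were made from the same counts, so that differences between clusters are described and not tested, and a CPM value cannot tell fewer expressing cells from less RNA per cell.

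**Figure D1:**
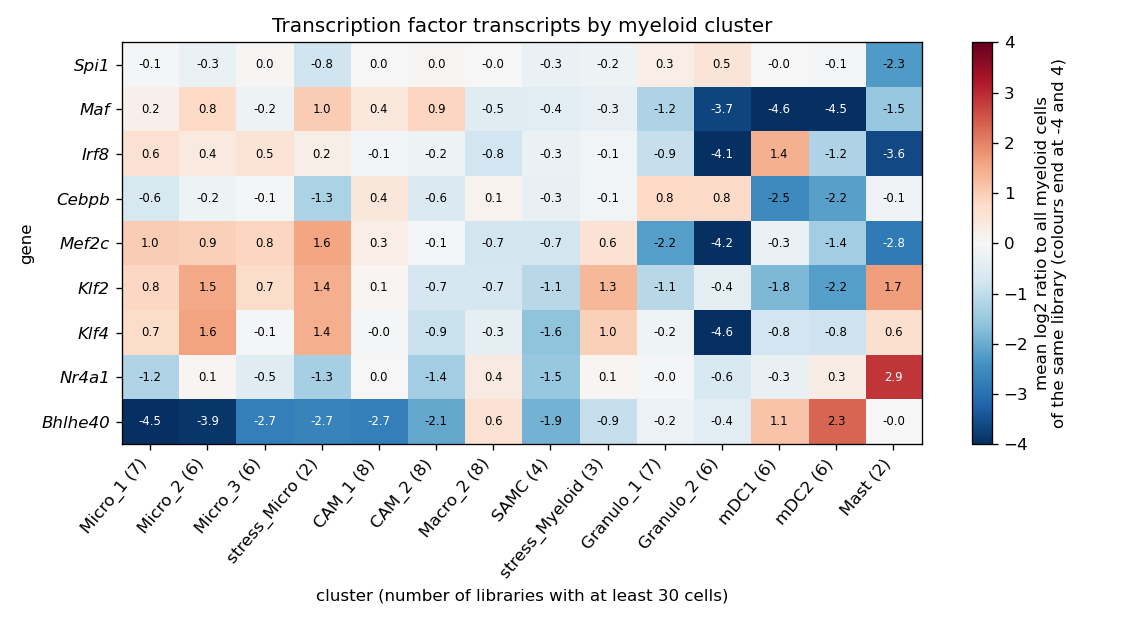
Each square gives the mean, over all libraries holding at least 30 such cells, of the log2 ratio of a gene's CPM in the cluster to its CPM in all myeloid cells of the same library (0.5 counts added); the number of libraries stands beside the cluster name. Spi1 stays between -0.8 and 0.5 in all clusters but mast cells (-2.3), while Bhlhe40 ranges from -4.5 in Micro_1 to 2.3 in mDC2.

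Cebpb was high in granulocytes and in meningeal macrophages and low in dendritic cells. Its mean was 4385 ± 1785 CPM (SD, n = 7 libraries) in Granulo_1, 4266 ± 3124 CPM (SD, n = 6 libraries) in Granulo_2 and 4067 ± 3118 CPM (SD, n = 8 libraries) in CAM_1, SDs as large as the differences between them. The dendritic cell clusters were low, at 470.0 ± 307 CPM (SD, n = 6 libraries) in mDC1 and 745 ± 510.1 CPM (SD, n = 6 libraries) in mDC2, and stress_Micro, with 2 libraries, had the lowest mean, at 371 ± 133 CPM (SD, n = 2 libraries). One of the dendritic cell clusters held the lowest level of all myeloid clusters in 6 of the 6 libraries with enough of these cells. In macrophages Cebpb was 1542 CPM in control brain, 2222 and 676 in replicates 1 and 2 of brain at 24 h, 568 in brain at 72 h, 4479.8 (control) and 4167 (24 h) in pia, and 5311 (control) and 4900.2 (24 h) in dura. All 4 meningeal libraries lay above all 4 brain libraries. Microglia showed the same separation, with 1131 CPM in control brain, 1470.4 and 394 in replicates 1 and 2 of brain at 24 h, 342 in brain at 72 h, 4768 (control) and 5034 (24 h) in pia, and 6657 (control) and 5519 (24 h) in dura. Lymphoid cells, taken as a class, differed in the same direction. They had 191 to 1073 CPM in control brain and brain at 24 h and 1597 to 2234 CPM in pia and dura. CAM_1 exceeded CAM_2 in 8 of 8 libraries, by a mean log2 ratio of 1.02 ± 0.57 (SD, n = 8 libraries).

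Irf8 marked type 1 dendritic cells and microglia. It was highest of all myeloid clusters in mDC1 in 5 of the 6 libraries with enough of these cells, at 784 ± 313 CPM (SD, n = 6 libraries), and the lymphoid NK cluster reached 798 ± 277 CPM (SD, n = 6 libraries). mDC1 exceeded mDC2 in 6 of 6 libraries, with a mean log2 ratio of 2.67 ± 1.02 (SD, n = 6 libraries). Granulo_2 held the lowest level of all myeloid clusters in 6 of 6 libraries, 7.61 to 37.2 CPM, while Granulo_1 still carried 82.9 to 306 CPM. Microglia were at 538 CPM in control brain, 591 and 546 in replicates 1 and 2 of brain at 24 h, 486 in brain at 72 h, 454 (control) and 410.4 (24 h) in pia, and 319 (control) and 217 (24 h) in dura. In macrophages Irf8 was 544 CPM in control brain, 430.3 and 390.0 in replicates 1 and 2 of brain at 24 h, 390.0 in brain at 72 h, 184 (control) and 174 (24 h) in pia, and 148 (control) and 161 (24 h) in dura. Here the 4 brain libraries, at 390.0 CPM or more, did not overlap with the 4 meningeal libraries, at 184 CPM or less. The share of all genes that separate these libraries in this way is not given, here or for Cebpb, Klf2 and Nr4a1. Such a separation is therefore a description and not a trait particular to these members.

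Mef2c was low in Granulo_2, and Maf in Granulo_2 and dendritic cells. Both were higher in microglia and macrophages. Mef2c was above the level of all myeloid cells in Micro_1 in 7 of 7 libraries and in Micro_2 in 6 of 6, with means of 774 ± 488 CPM (SD, n = 7 libraries) and 857 ± 532 CPM (SD, n = 6 libraries), and among lymphoid clusters B cells (Bc) had 627 ± 480.4 CPM (SD, n = 6 libraries). In Granulo_2 it was listed with 0 to 53.0 CPM. In microglia Mef2c was 657 CPM in control brain, 569 and 1592 in replicates 1 and 2 of brain at 24 h, 1134 in brain at 72 h, 631 (control) and 480.0 (24 h) in pia, and 274 (control) and 135 (24 h) in dura, highest in the 2 libraries with the shorter gene list. Microglia exceeded macrophages in 7 of 8 libraries, by a mean log2 ratio of 1.01 ± 0.91 (SD, n = 8 libraries).

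Maf was near 0 in dendritic cells, with 0 to 31.3 CPM in mDC1 and 0 to 20.7 CPM in mDC2, and with 0 to 28.6 CPM in Granulo_2. Granulo_1 was not uniformly low, at 6.37 to 233 CPM. It had 162 CPM in brain at 72 h and 233 in control pia, above Macro_2 there (50.5 and 103), and lay below Macro_2 in the other libraries. In macrophages it was 130.0 CPM in control brain, 27.6 and 202 in replicates 1 and 2 of brain at 24 h, 158 in brain at 72 h, 174 (control) and 89.2 (24 h) in pia, and 158 (control) and 82.2 (24 h) in dura. CAM_2 was above the level of all myeloid cells in 7 of 8 libraries, and Macro_2 was below CAM_2 in 8 of 8, by a mean log2 ratio of -1.34 ± 0.52 (SD, n = 8 libraries). Outside the myeloid lineage gamma delta T cells (gdTc) had 394 ± 330.3 CPM (SD, n = 4 libraries). In microglia Maf was 115 CPM in control brain, 80.9 and 446 in replicates 1 and 2 of brain at 24 h, 372 in brain at 72 h, 136 (control) and 33.9 (24 h) in pia, and 395 (control) and 89.9 (24 h) in dura, and tissues and times overlapped.

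Klf2 and Klf4 were both highest in microglia, and within microglia in Micro_2. Klf2 was the highest of all myeloid clusters in Micro_2 in 5 of 6 libraries, at 6631 ± 3881 CPM (SD, n = 6 libraries), and Klf4 likewise in 5 of 6, at 1579 ± 1073 CPM (SD, n = 6 libraries). Micro_2 exceeded Micro_1 in 5 of 6 libraries for Klf2 and in 6 of 6 for Klf4, with mean log2 ratios of 0.71 ± 0.48 (SD, n = 6 libraries) and 1.05 ± 0.44 (SD, n = 6 libraries). Microglia exceeded macrophages in 8 of 8 libraries for both genes. Granulo_2 split the pair, with 0 to 73.4 CPM of Klf4, the lowest of all myeloid clusters in 6 of 6 libraries, and 461 to 1768 CPM of Klf2. Granulo_1 had 105 to 511 CPM of Klf4 and 218 to 897 CPM of Klf2.

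In microglia Klf2 was 7985 CPM in control brain, 6844 and 4688 in replicates 1 and 2 of brain at 24 h, 4562 in brain at 72 h, 2758 (control) and 1470.5 (24 h) in pia, and 2979 (control) and 846 (24 h) in dura. Every brain library lay above every meningeal library. In macrophages Klf2 was 6826 CPM in control brain, 2834 and 1268 in replicates 1 and 2 of brain at 24 h, 405 in brain at 72 h, 1082 (control) and 505 (24 h) in pia, and 749.6 (control) and 404 (24 h) in dura, and control brain was the highest library in both classes. Lymphoid cells also had more Klf2 in brain, at 1547 to 2034 CPM, than in pia and dura, at 313 to 596 CPM. Klf4 in microglia was 625 CPM in control brain, 757 and 2308 in replicates 1 and 2 of brain at 24 h, 1418 in brain at 72 h, 421 (control) and 449.7 (24 h) in pia, and 258 (control) and 179.7 (24 h) in dura. Klf4 was again highest in the 2 libraries with the shorter gene list, and in macrophages it reached 835 CPM in brain at 24 h replicate 2 against 71.6 CPM in control dura.

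**Figure D2:**
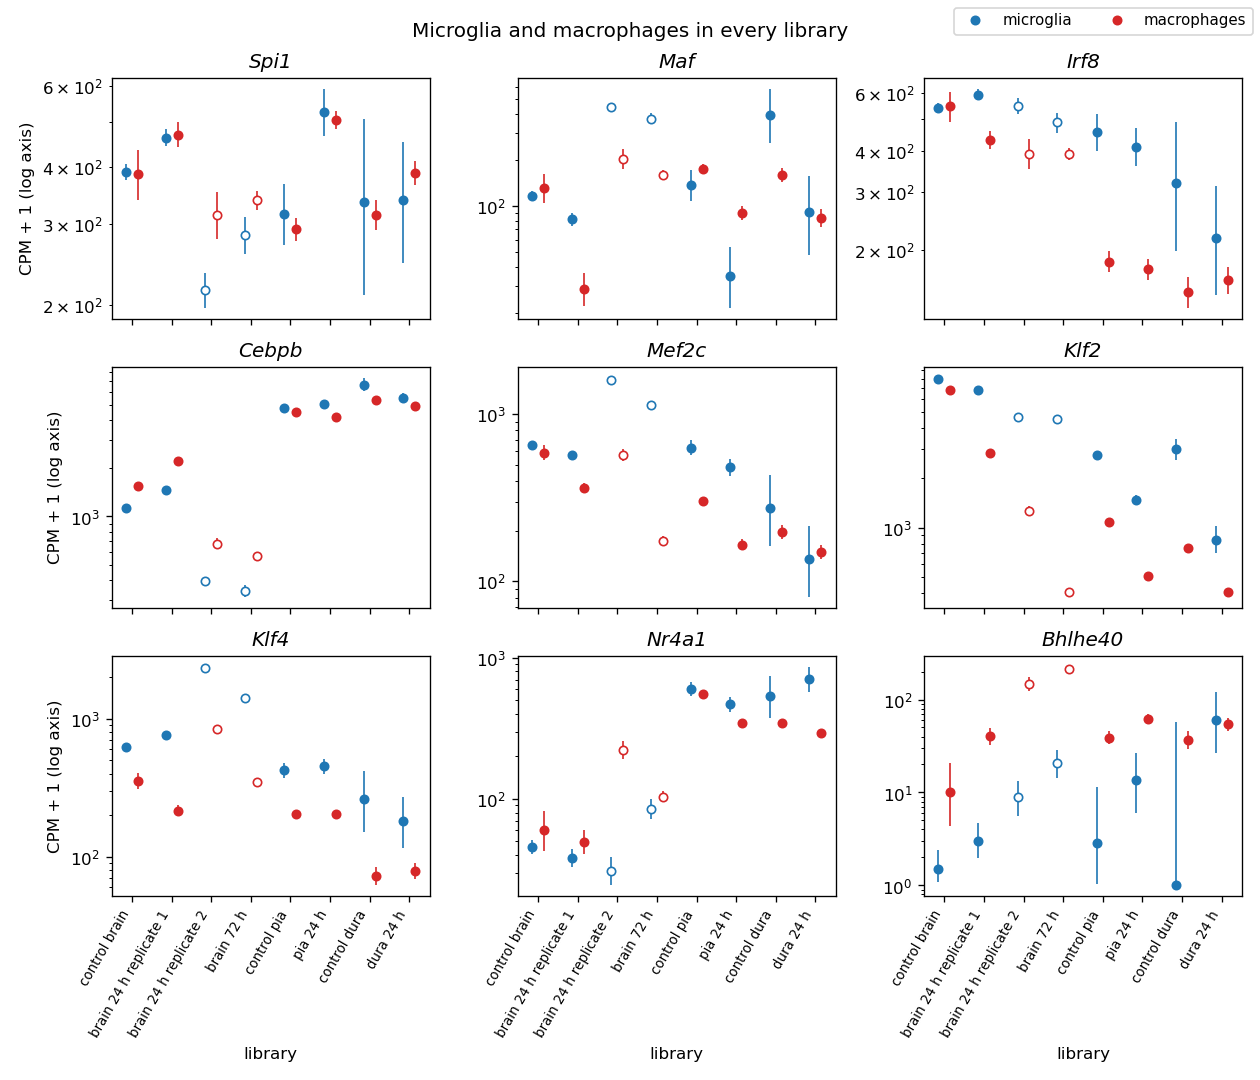
Points give CPM + 1 (log axis) of each gene in the microglia (blue) and macrophage (red) classes of each of the 8 libraries, bars the exact 95% Poisson intervals, which cover counting error only, and open points the 2 libraries with the shorter gene list. Cebpb and Nr4a1 lie higher in the pia and dura libraries than in the brain libraries, Klf2 in microglia lies lower, and Maf, Mef2c and Klf4 in microglia are highest or nearly so in the open points.

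Nr4a1 separated meninges from brain in microglia, where it was 44.7 CPM in control brain, 37.2 and 30.0 in replicates 1 and 2 of brain at 24 h, 84.2 in brain at 72 h, 598 (control) and 468 (24 h) in pia, and 532 (control) and 704 (24 h) in dura. In macrophages it was 59.0 CPM in control brain, 48.7 and 222 in replicates 1 and 2 of brain at 24 h, 103 in brain at 72 h, 548 (control) and 343 (24 h) in pia, and 343 (control) and 291 (24 h) in dura, and here too no brain library reached a meningeal one. Mast cells had the highest level of any cluster, at 2485 CPM (206 UMIs) in control dura and 2484 CPM (356 UMIs) in dura at 24 h, followed by type 2 innate lymphoid cells (ILC2) with 1309 ± 499.6 CPM (SD, n = 5 libraries). The cluster stress_Myeloid had 1232 CPM in control pia and 991 CPM in pia at 24 h, but 21.5 CPM (1 UMI) in brain at 24 h replicate 2. CAM_1 exceeded CAM_2 in 8 of 8 libraries, and Micro_2 exceeded Micro_1 in 6 of 6. Lymphoid cells, as a class, had 149 to 226 CPM in brain and 447 to 631 CPM in pia and dura. The separation did not hold in every class. Granulocytes had 226 and 410 CPM in replicates 1 and 2 of brain at 24 h and 311 in brain at 72 h. They had 242 (control) and 132 (24 h) in pia, and 115 (control) and 116 (24 h) in dura. Dendritic cells overlapped, at 242 to 282 CPM in brain and 255 to 478 in pia and dura. B cells alone overlapped as well, at 223 and 407 CPM in brain and 149 to 775 in pia and dura.

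Bhlhe40 ran opposite to the microglial members. mDC2 was the highest myeloid cluster in 6 of 6 libraries, at 729 ± 119 CPM (SD, n = 6 libraries), and mDC1 followed with 339.9 ± 150.2 CPM (SD, n = 6 libraries). ILC2 had 1463 ± 383 CPM (SD, n = 5 libraries) and NK cells 751 ± 162 CPM (SD, n = 6 libraries). In microglia Bhlhe40 was 0.49 CPM in control brain, 2.03 and 7.83 in replicates 1 and 2 of brain at 24 h, 19.5 in brain at 72 h, 1.86 (control) and 12.5 (24 h) in pia, and 0 (control) and 59.9 (24 h) in dura, where control dura had no UMI among 51 cells, which allows up to 45.6 CPM at 3 counts (counting error only). Macro_2 exceeded CAM_1 in 8 of 8 libraries, by a mean log2 ratio of 3.34 ± 2.56 (SD, n = 8 libraries), and in brain at 24 h replicate 1 the CPM was 524 in Macro_2 (83 UMIs) and 0.67 in CAM_1 (1 UMI). In dendritic cells as a class it was 1084 and 721 CPM in replicates 1 and 2 of brain at 24 h, 531 in brain at 72 h, 595 (control) and 553 (24 h) in pia, and 449.8 (control) and 439 (24 h) in dura.

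SAMC held at least 30 cells in 4 libraries, brain at 24 h replicates 1 and 2, brain at 72 h and pia at 24 h. Klf4 was lower in SAMC than in macrophages in 4 of 4 libraries, by a mean log2 ratio of -1.08 ± 0.40 (SD, n = 4 libraries), and Bhlhe40 in 4 of 4, by -1.49 ± 0.75 (SD, n = 4 libraries). Bhlhe40 in SAMC was 7.57, 36.9, 98.1 and 36.5 CPM in these libraries, in the order given. Macro_2 had 524, 258, 340 and 113 CPM, CAM_1 0.67, 20.8, 163 and 20.2, and CAM_2 4.16, 47.1, 121 and 33.0. SAMC thus lay below Macro_2 in each library and went both ways against CAM_1 and CAM_2. Spi1, Irf8, Cebpb and Maf had mean ratios between -0.24 and -0.13 and went both ways among the libraries. Mef2c in SAMC was 207 and 825 CPM in replicates 1 and 2 of brain at 24 h, 91.6 in brain at 72 h and 128 in pia at 24 h. Nr4a1 in SAMC was 73.6, 12.3 and 31.7 CPM in these brain libraries and 247 CPM in pia, the same direction as between brain and meningeal macrophages. The cells under the SAMC name differed between libraries. Their microglia markers summed to 6043, 4483 and 1931 CPM in these brain libraries and 1991 in pia. Markers of monocytes and monocyte-derived cells summed to 362, 1757 and 17773 CPM and to 13689 in pia. The part of this makeup was not tested.

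The difference between tissues was tested in macrophages, on 4 libraries of pia and dura against 3 of brain (control and 24 h), with condition as a covariate, by edgeR's quasi-likelihood test over all genes. Calls have a Benjamini-Hochberg adjusted p under 0.05 and at least a 2-fold change. Cebpb was higher in the meninges, with a log2 fold change of 2.06 ± 0.50 (SE; adjusted p = 0.047), and Klf2 and Irf8 were lower, with -2.07 ± 0.42 (SE; adjusted p = 0.028) and -1.05 ± 0.26 (SE; adjusted p = 0.049). These 3 of the 9 members were called, and of all 8875 genes tested 7.9% were called, 389 higher and 312 lower. The median log2 fold change was 0.33 over the 9 members and -0.12 over all genes. The other 6 were not called: Nr4a1 had 2.28 ± 0.61 (SE; adjusted p = 0.063), Mef2c -1.02 ± 0.30 (SE; adjusted p = 0.077), Klf4 -1.26 ± 0.58 (SE; adjusted p = 0.22), and Spi1, Maf and Bhlhe40 lay between 0.33 and 0.51 with SEs of 0.31 to 0.63.

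Without brain at 24 h replicate 2, which leaves 1 library for each tissue and condition, 6 members were called, where 21.3% of all genes were. Nr4a1 then had 3.21 ± 0.28 (SE; adjusted p = 1.6e-04), Maf 1.35 ± 0.30 (SE; adjusted p = 0.01) and Bhlhe40 1.37 ± 0.30 (SE; adjusted p = 0.0097), all higher in the meninges, beside Cebpb at 1.74 ± 0.26 (SE; adjusted p = 0.0017), Klf2 at -2.36 ± 0.22 (SE; adjusted p = 2.2e-04) and Irf8 at -1.13 ± 0.19 (SE; adjusted p = 0.003). The calls with all libraries were close to the threshold. Without control brain no member was called and only 13 genes were, with adjusted p of 0.28 for Irf8 and 0.21 for both Cebpb and Klf2. Leaving out control dura, control pia, dura at 24 h or pia at 24 h also ended the 3 calls, with adjusted p between 0.094 and 0.18, log2 fold changes staying between 1.96 and 2.12 for Cebpb, -2.21 and -1.92 for Klf2 and -1.11 and -0.96 for Irf8. Without brain at 24 h replicate 1, Cebpb was called (2.63, adjusted p = 0.0327) and Klf2 (-1.79, adjusted p = 0.061) and Irf8 (-1.01, adjusted p = 0.081) were not. Within Macro_2 alone no member and 20 genes were called. Nr4a1 was called higher in the meninges by DESeq2 (2.29), where 13.5% of all genes were called, and in CAM_1 (3.26) and CAM_2 (2.09) cells alone, where 13.5% and 8.87% were. The median over all genes moved from -0.12 to -0.54 when libraries were scaled by their size alone, where Cebpb was no longer called. Brain was digested for 20 min and pia and dura for 45 min, so that tissue and digestion cannot be told apart. Macro_2 gave 35 of 440 macrophages in control brain, and 56 of 993 and 93 of 356 in replicates 1 and 2 of brain at 24 h. It gave 1044 of 1929 (control) and 832 of 2013 (24 h) in pia, and 588 of 899 and 622 of 1075 in dura. Within Macro_2, Irf8 was 178, 133 and 331 CPM in these brain libraries and 141 to 159 in pia and dura. In CAM_1 it was 469 to 529 CPM in these brain libraries and 140.1 to 214 in pia and dura. The parts of this makeup and of the microglia transcripts among brain macrophages were not tested.

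**Figure D3:**
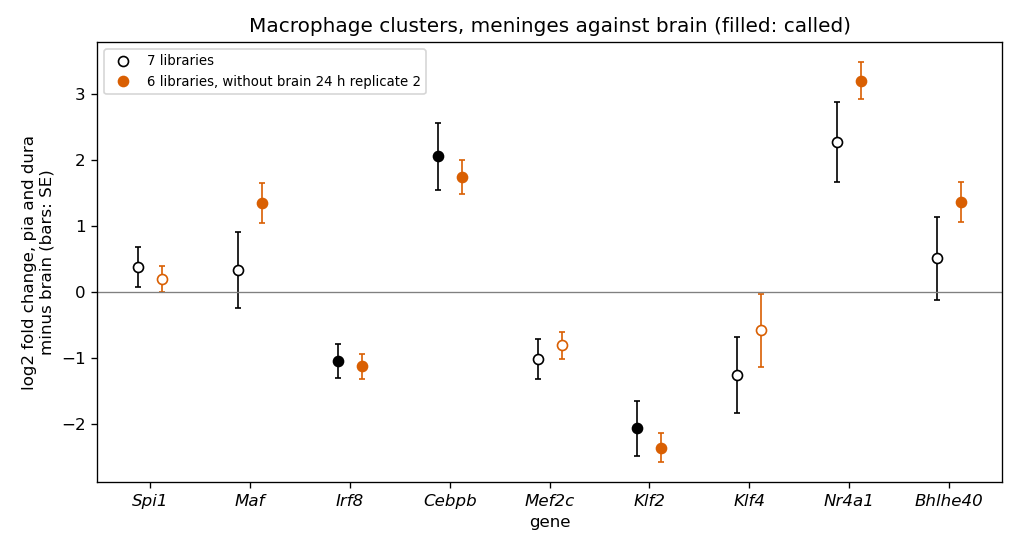
Points give the log2 fold change of each gene in macrophages, pia and dura minus brain, bars its SE, from 7 libraries (black) and without brain at 24 h replicate 2 (orange); filled points were called. Irf8, Cebpb and Klf2 are filled in both fits, and Maf, Nr4a1 and Bhlhe40 in the orange one alone.

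Klf2 had a lower level at 24 h after MCAO than in controls in every tissue, in macrophages and in microglia, but no member was called between 24 h and control. In macrophages its log2 fold change, with tissue as a covariate, was -1.38 ± 0.45 (SE; adjusted p = 0.93), and in microglia -1.03 ± 0.36 (SE; adjusted p = 0.996). The other members lay between -0.77 (Maf) and 1.32 (Bhlhe40) in macrophages and between -0.83 (Maf) and 0.41 (Klf4) in microglia, where Bhlhe40 was too low to be tested. edgeR called 0% of 8875 genes in macrophages and 0% of 6078 genes in microglia, with 431 and 170 genes at an unadjusted p under 0.05 and 18 and 6 genes called by DESeq2. Without brain at 24 h replicate 2, Klf2 was called lower at 24 h in macrophages, with -1.16 ± 0.18 (SE; adjusted p = 0.048), where 0.887% of all genes were called. In microglia Klf2 then had -0.97 ± 0.23 (SE; adjusted p = 0.023), short of a 2-fold change, and Maf was called lower, with -1.20 ± 0.27 (SE; adjusted p = 0.022), where 1.99% of all genes were called. With replicate 2 the value of Maf in microglia was -0.83 ± 1.01 (SE; adjusted p = 0.996). Maf in macrophages was not called, at -1.36 ± 0.26 (SE; adjusted p = 0.055) without replicate 2. Mef2c in macrophages had -0.61 ± 0.31 (SE; adjusted p = 0.93) with all 7 libraries and -0.73 ± 0.17 (SE; adjusted p = 0.074) without replicate 2.

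Control brain had 9 granulocytes and 20 dendritic cells and gave no value for these classes, so that their comparison with control rests on pia and dura. In granulocytes, Cebpb was 7241 and 1934 CPM in replicates 1 and 2 of brain at 24 h, 1908 in brain at 72 h, 4189.6 (control) and 4901 (24 h) in pia, and 3207 (control) and 4352 (24 h) in dura. Maf in granulocytes was 5.44 and 61.5 CPM in replicates 1 and 2 of brain at 24 h, 146 in brain at 72 h, 190.4 (control) and 18.0 (24 h) in pia, and 10.1 (control) and 5.69 (24 h) in dura, and control pia, with 65 granulocytes, stood high. Border macrophage markers summed to 3108 CPM in granulocytes of control pia. They summed to 439 to 688 CPM in those of the 5 other libraries in this comparison, and their part was not tested. This class pools Granulo_1 and Granulo_2. Granulo_2 had less Irf8 and Klf4 than Granulo_1 in 6 of 6 libraries, with mean log2 ratios of -2.98 and -4.41. Maf was lower in 5 of 6. In brain at 24 h replicate 1 Maf had 0 UMIs in Granulo_2 and 2 UMIs in Granulo_1, too few to give a direction. Summed neutrophil markers of the class ranged from 18871 CPM (brain at 24 h replicate 1) to 153016 CPM (dura at 24 h). Control pia had 50508.5 CPM and control dura 149525 CPM. The part of this mix in the class values was not tested. edgeR called 0% of 6228 genes (107 at an unadjusted p under 0.05, 5 called by DESeq2), and 0.0812% without replicate 2, none of them a member, Maf then being too low to be tested. Bhlhe40 had the highest value of the members, 1.52 ± 0.89 (SE; adjusted p = 1), and Maf the lowest, -2.34 ± 1.12 (SE; adjusted p = 1).

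In dendritic cells Irf8 was 265 and 405 CPM in replicates 1 and 2 of brain at 24 h, 475 in brain at 72 h, 272 (control) and 276 (24 h) in pia, and 683 (control) and 516 (24 h) in dura, and no member was called at 24 h. This class pools mDC1 and mDC2, whose mix differed between libraries. In pia mDC1 had 57 cells in the control and 226 at 24 h, and mDC2 115 and 190. Irf8 in mDC1 was 791 (control) and 385 (24 h) CPM in pia, and 1257 and 1014 in dura. In mDC2 it was 95.7 (control) and 148 (24 h) CPM in pia, and 108 and 95.7 in dura. The part of this mix in the class values was not tested. edgeR called 0% of 6950 genes (178 at an unadjusted p under 0.05, 2 called by DESeq2). Maf was too low to be tested, and the other 8 members lay between -0.73 (Nr4a1) and 0.45 (Spi1). Without replicate 2 it called 1.73% and again no member, Nr4a1 at -0.73 ± 0.23 (SE; adjusted p = 0.081) and Klf2 at -0.67 ± 0.23 (SE; adjusted p = 0.15) having the lowest values. In mDC1 cells alone Klf2 was called lower at 24 h, with a log2 fold change of -1.25 (edgeR adjusted p = 0.0047), in a fit where 1.45% of all genes were called. Klf2 in mDC1 was 352 (control) and 117 (24 h) CPM in pia and 277 (control) and 151 (24 h) CPM in dura. It was 412 CPM in brain at 24 h replicate 2, above both controls, but with no control of its own tissue that library does not enter the fold change, and the fit had 1 residual degree of freedom.

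Both brain libraries with the shorter gene list differed from replicate 1 of 24 h in the same direction for Cebpb, Maf and Klf4 in every cluster compared. Klf2 and Spi1 did so in nearly all clusters. Cebpb was lower in brain at 24 h replicate 2 than in replicate 1 in 10 of 10 clusters, with a median log2 ratio of -1.81, and Maf and Klf4 were higher in 10 of 10, with medians of 2.54 and 1.53. Mef2c was higher in 9 of 9 myeloid clusters and Spi1 lower in 9 of 9. T cells, the remaining cluster, went the other way for both genes, with 1 UMI of Mef2c and 0 of Spi1 in replicate 1. Klf2 was lower in 9 of 10 clusters, with a median log2 ratio of -0.52, and higher in 1. Irf8, Nr4a1 and Bhlhe40 were higher in 5 of 10 clusters and lower in 5. Against replicate 1, brain at 72 h had lower Cebpb and Klf2 in 10 of 10 clusters and higher Maf and Klf4 in 10 of 10. Spi1 was again lower in 9 of 9 myeloid clusters and higher in T cells. Of 10 clusters, Irf8 was higher in 3 and lower in 7, Nr4a1 higher in 7 and lower in 3. Bhlhe40 was higher in 6 and lower in 4. Mef2c did not keep its direction there, being higher in 6 and lower in 3 of 9 myeloid clusters, with log2 ratios of -1.06 in macrophages, -1.17 in SAMC and 0.99 in microglia. Klf2 in macrophages also differed within a set, by log2 ratios of -1.27 (replicate 1 against control brain) and -1.65 (72 h against replicate 2). Between the replicates it was -1.16. In microglia these values were -0.22, -0.04 and -0.55. The share of all genes that keep a direction over all clusters is not given, and 53.4% of genes in microglia differed at least 2-fold between the replicates. Both 24 h replicates carry the same tissue and time label.

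Brain at 72 h is 1 library, and its nearest counterpart is brain at 24 h replicate 2, of the same set. Between these, in macrophages, Klf2 was 405 CPM at 72 h and 1268 at 24 h, Mef2c 173 and 571, and Klf4 344 and 835. In microglia Klf2 was 4562 CPM at 72 h and 4688 at 24 h, a smaller difference than in macrophages, while Irf8 was 486 and 546 CPM in microglia and 390.0 CPM in macrophages at both times. In SAMC Mef2c was 91.6 CPM at 72 h and 825 at 24 h, and Cebpb 403 and 776. Summed microglia markers of SAMC were 1931 CPM at 72 h and 4483 at 24 h, and summed monocyte markers 17773 and 1757. The part of this makeup in the SAMC values was not tested. The macrophage class changed its makeup between these libraries, CAM_1 giving 165 of 356 cells at 24 h and 212 of 1497 at 72 h and Macro_2 giving 93 and 570. The time difference has no replicate check.

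**Figure D4:**
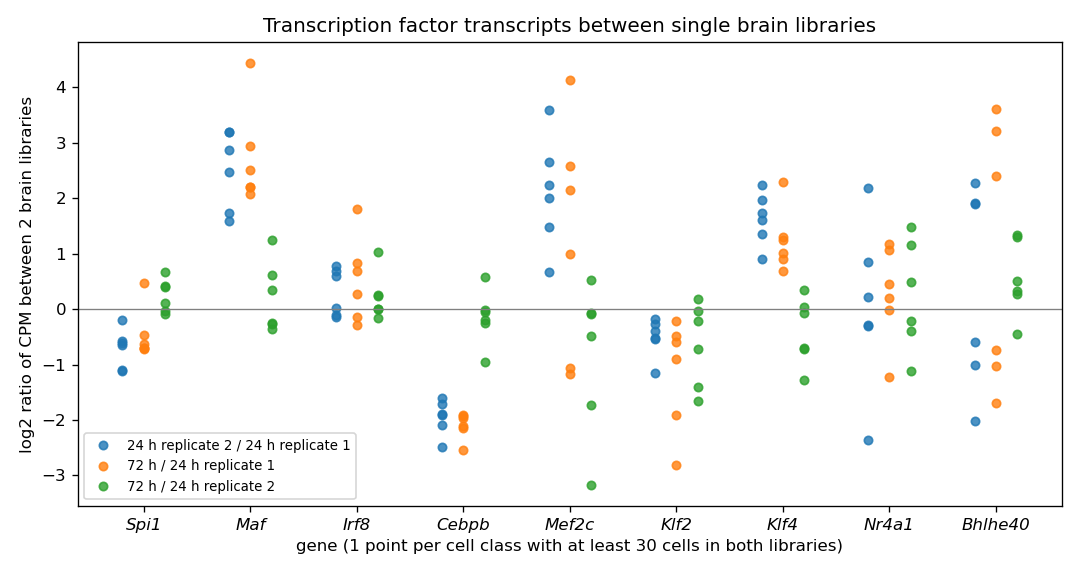
Each point is the log2 ratio of a gene's CPM between 2 brain libraries in 1 cell class with at least 30 cells in both (0.5 counts added), by pair of libraries. Cebpb lies below 0 and Maf and Klf4 above 0 in every class when either library of the shorter gene list is set against replicate 1 of 24 h, and they range from -1.28 to 1.24 between brain at 72 h and replicate 2.

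Among 46 other transcription factors of myeloid lineages, 43 were tested between meningeal and brain macrophages. Of these, 6 were called higher and 2 lower in the meninges, where 7.9% of all genes were called. Their median log2 fold change was 0.16 against -0.12 over all genes. The higher genes included Batf (3.31 ± 0.45, adjusted p = 0.0087), an AP-1 factor, Irf7 (1.83 ± 0.28, adjusted p = 0.011), an interferon response factor, and Nfe2l2 (1.72 ± 0.27, adjusted p = 0.013), the oxidative stress factor Nrf2. Tgif1, Relb and Rela, the latter 2 being NF-κB subunits, also rose. Sall1, which defines microglia, was lower (-6.52 ± 0.63, adjusted p = 0.0046), as was Tfeb (-1.13 ± 0.27, adjusted p = 0.045), a regulator of lysosomes. Without replicate 2, the relatives of Nr4a1 had the highest values of this list, Nr4a3 at 6.57 ± 0.53 and Nr4a2 at 5.24 ± 0.55. Neither was among the genes called with all libraries.

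Of 17 immediate early and heat shock genes, whose levels are known to rise when cells are dissociated, all were tested in this comparison. Of these 3 were called, all lower in the meninges, where 3.52% of all genes were called lower. They were Egr1 (-2.38 ± 0.39, adjusted p = 0.015), Jun (-2.04 ± 0.43, adjusted p = 0.031) and Fos (-1.53 ± 0.34, adjusted p = 0.035). The summed level of the 17 in macrophages was 50829 CPM in control brain, 30107 and 20398 CPM in replicates 1 and 2 of brain at 24 h and 20573 to 29377 CPM in pia and dura. Nr4a1, itself an immediate early gene, had its higher levels in the meninges but was not called with all libraries. Digestion time differed with tissue, and its part in these values was not tested. Between 24 h and control none of the 46 and none of the 17 was called in any class with all libraries. Without replicate 2, Irf1 (-1.35 ± 0.17, adjusted p = 0.039), a factor of the interferon response, was lower at 24 h in macrophages, and Irf1 (-1.54 ± 0.29, adjusted p = 0.002) and Irf7 (-1.32 ± 0.31, adjusted p = 0.037) were lower in dendritic cells. Egr1 and Btg2 were lower in both classes, with Zfp36 in macrophages and Ier3 in dendritic cells.

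Genes with the pattern most like each member were sought over 80 sums of a library and a myeloid cluster, centred within libraries, among 2866 genes averaging at least 50 CPM. The sums share libraries and depth, and Pearson's r on log2(CPM + 10) is a description. Maf was most like Stab1 (r = 0.91), C1qa (0.89) and C1qc (0.89), a scavenger receptor and complement subunits. Klf2 was most like Rhob (0.90) and Dusp6 (0.86), and Mef2c like Cttnbp2nl (0.90), Fgd2 (0.88) and Blnk (0.88). Irf8 was most like Tcf4 (0.84), a factor of plasmacytoid dendritic cells, then Txndc15 (0.83) and Evl (0.83).

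Cebpb was most like Ets2 (0.79), Rab20 (0.77) and Dok3 (0.76). Nr4a1 was most like Csrnp1 (0.83), Tiparp (0.75) and the AP-1 gene Fosl2 (0.74). Bhlhe40 was most like Napsa (0.88), Pfkp (0.84) and Cytip (0.84). Klf4 was most like Sfpq (0.84), Snrnp70 (0.84) and Foxn3 (0.82), and Spi1 had the weakest likeness, to Arpc4 (0.76), Cyba (0.72) and Gnb2 (0.71). Between members r was highest for Irf8 with Mef2c (0.78) and Mef2c with Klf4 (0.74), and lowest for Klf2 with Bhlhe40 (-0.75) and Maf with Bhlhe40 (-0.72).

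On GRCm38 the members lie on 6 chromosomes and do not form a cluster. Spi1 (ENSMUSG00000002111) spans chr2:91082390-91115756 and Cebpb (ENSMUSG00000056501) chr2:167688915-167690418. Maf (ENSMUSG00000055435) spans chr8:115682942-115707794, Irf8 (ENSMUSG00000041515) chr8:120736358-120756694 and Klf2 (ENSMUSG00000055148) chr8:72319033-72321656. Klf4 (ENSMUSG00000003032) spans chr4:55527143-55532466, Bhlhe40 (ENSMUSG00000030103) chr6:108660629-108666925, Mef2c (ENSMUSG00000005583) chr13:83504034-83667080 and Nr4a1 (ENSMUSG00000023034) chr15:101254269-101274795. Maf and Klf4 are on the minus strand and the others on the plus strand.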

How the data were processed

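scRNA-seq of sorted leukocytes was analysed in 8 libraries. The authors made the deposited UMI counts per gene and cell with Cell Ranger 6.0 on mm10, per the submitters' processing notes, and the deposited counts are not normalized. The authors removed cells with too few or too many genes or a high mitochondrial percentage, at limits that differed between samples, removed doublets with scDblFinder 1.6, clustered in Seurat 4.0.4 (R 4.1.1) after Harmony and named the clusters. Their cluster names were used as deposited, for 32457 of 36854 barcodes, and no further cell filter or doublet caller was applied. The authors' deposited UMAP coordinates were not used.

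Genes were joined by identifier, as 597 identifiers carry different symbols in the 2 gene lists. UMIs were summed per library and cluster or class where at least 30 cells were present. The quasi-likelihood test of edgeR 4.0.16 (R 4.3.3) was fitted to these sums over all genes after TMM scaling and filterByExpr, with robust dispersion, two-sided, with tissue or condition as a covariate. Each log2 ratio within a library had 0.5 counts added. Counting intervals are exact 95% Poisson intervals. Brain at 24 h alone has 2 libraries, so p-values rest mostly on how far single libraries depart from additive effects of tissue and condition, and not on replicates of a group. The fits had 2 to 4 residual degrees of freedom. Without brain at 24 h replicate 2 they had 1 to 3, and no group then had a second library. Alternatives were DESeq2 (1.42.0), scaling by library size, no low-count filter, at least 100 cells, cells of at least 1000 UMIs or thinned to 1000, single clusters, 2 counts added and each library left out. By rule the 9 members are accounted for in every comparison and genes of the other lists are named where called, except that some results are not reported here. The members and lists were chosen with earlier results of these data known. The steps were tested on simulated data. Positions are from GENCODE M21, and Python 3.11.15 was used for all other steps.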

Additional observations from a re-analysis of the deposited data

Results flagged for a closer look

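Maf in the microglia class of brain at 24 h replicate 2, at 446 CPM, stood apart from the other 3 libraries at 24 h, which had 33.9 to 89.9 CPM, its gap to the nearest being 86.4% of the range. Of 45 such sets of 4 libraries 1 was marked, and chance marks about 1 in 20. Maf was also higher in this library than in replicate 1 in 10 of 10 clusters. T cells, with 1 UMI in replicate 1, were the only lymphoid cluster among them.

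At 24 h after MCAO, Irf8 in microglia was above control in both brain libraries and below it in pia and dura, a difference that was not tested. Against control brain it was 53.2 CPM higher in replicate 1 and 7.58 CPM higher in replicate 2 of brain at 24 h, where the counting intervals (516 to 577 CPM in replicate 2, 520.0 to 557 CPM in control brain) overlap. Brain at 72 h, at 486 CPM, was below control brain, at 538 CPM. In pia it differed from control by -44.0 CPM at 24 h, and in dura by -102 CPM, where the microglia class held 51 cells in the control and 76 at 24 h.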

How the results depend on the processing

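No gene was called at 24 h with all libraries, and 701 genes were between tissues. By DESeq2, called genes numbered 18 in macrophages at 24 h, 6 in microglia at 24 h, 5 in granulocytes at 24 h, 2 in dendritic cells at 24 h and 1202 in macrophages between tissues. With no filter on low counts, called genes numbered 73 in macrophages at 24 h, 11 in microglia at 24 h, 6 in granulocytes at 24 h, 7 in dendritic cells at 24 h and 1551 in macrophages between tissues. With Micro_2 cells alone, called genes numbered 1 in microglia at 24 h. With at least 100 cells per library, called genes numbered 87 in dendritic cells at 24 h. With mDC1 cells alone, called genes numbered 83 in dendritic cells at 24 h. With mDC2 cells alone, called genes numbered 120 in dendritic cells at 24 h. With scaling by library size alone, called genes numbered 1194 in macrophages between tissues. With CAM_2 cells alone, called genes numbered 365 in macrophages between tissues. With Macro_2 cells alone, called genes numbered 20 in macrophages between tissues. With each library left out in turn, the counts ranged from 0 to 77 in macrophages at 24 h, 0 to 113 in microglia at 24 h, 0 to 6 in granulocytes at 24 h, 0 to 124 in dendritic cells at 24 h and 13 to 2011 in macrophages between tissues. The highest count came without brain 24 h replicate 2 in macrophages at 24 h, microglia at 24 h, dendritic cells at 24 h and macrophages between tissues, and without brain 24 h replicate 1 in granulocytes at 24 h. The lowest count between tissues came without control brain replicate 1. In macrophages at 24 h, log2 fold changes took the other sign for Irf8 (0.0342, Macro_2 cells only), Cebpb (0.11, CAM_2 cells only), Klf4 (-0.16, Macro_2 cells only), Nr4a1 (-0.64, CAM_1 cells only) and Nr4a1 (-0.0394, SAMC added). In microglia at 24 h, log2 fold changes took the other sign for Maf (0.13, Micro_2 cells only), Mef2c (0.10, at least 100 cells per library), Mef2c (0.0514, cells with at least 1000 UMIs), Mef2c (0.23, Micro_1 cells only) and Mef2c (0.0249, Micro_2 cells only). In granulocytes at 24 h, log2 fold changes took the other sign for Cebpb (-0.0618, Granulo_1 cells only), Klf2 (0.00849, at least 100 cells per library), Klf2 (0.34, Granulo_2 cells only), Nr4a1 (0.16, at least 100 cells per library), Nr4a1 (0.27, Granulo_2 cells only) and Bhlhe40 (-0.35, Granulo_2 cells only). In dendritic cells at 24 h, log2 fold changes took the other sign for Irf8 (0.16, mDC2 cells only) and Bhlhe40 (0.18, mDC1 cells only). In macrophages between tissues, log2 fold changes took the other sign for Spi1 (-0.0365, library size alone), Maf (-0.12, library size alone), Maf (-0.0222, Macro_2 cells only) and Bhlhe40 (-1.45, Macro_2 cells only). Leaving out a library gave both signs in macrophages at 24 h for Cebpb -0.55 to 0.0316, Klf4 -0.27 to 0.36 and Nr4a1 -0.51 to 0.45. Leaving out a library gave both signs in microglia at 24 h for Spi1 -0.17 to 0.39, Cebpb -0.56 to 0.0186, Mef2c -0.69 to 0.12, Klf4 -0.20 to 0.65 and Nr4a1 -0.51 to 0.00613. Leaving out a library gave both signs in granulocytes at 24 h for Klf2 -1.18 to 0.00849 and Nr4a1 -0.99 to 0.16. Leaving out a library gave both signs in dendritic cells at 24 h for Cebpb -0.77 to 0.48 and Bhlhe40 -0.34 to 0.034. Leaving out a library gave both signs in macrophages between tissues for Maf -0.0372 to 1.35 and Bhlhe40 -0.17 to 1.37. None of the members whose sign changed was called with all libraries. Of the other values of member fold changes, 537 kept direction and side of the threshold, 15 became called and 27 lost the call, all of the latter for Cebpb, Irf8 and Klf2 between tissues. All 495 values of class ratios and 95 of the levels moved by less than the SD, the exceptions being Klf4 in stress_Micro and Nr4a1 in mast cells, which have 2 libraries each. The cause of these changes was not tested, and the fits without brain at 24 h replicate 2 or without a control also rest on fewer samples. Of 200 genes given 4-fold changes in simulated counts, edgeR called 53%, 38.5%, 6.5%, 43.5% and 66.5% in macrophages, microglia, granulocytes and dendritic cells at 24 h and in macrophages between tissues. Which libraries share mice is not given in the sources used here, so no analysis paired by mouse was made. Libraries of different tissues of the same condition may come from the same mice.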
